A study of Mus musculus with 2 samples.

Results

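The integrated stress response and the unfolded protein response were followed through 37 genes, found by symbol among the 26893 named genes of the deposited gene list. Of these, 22 belong to the programme usually tied to the transcription factor ATF4 and are called ATF4-type, and 15 encode chaperones, folding enzymes and quality control factors of the endoplasmic reticulum (ER) and are called ER members. They were measured in mouse spermatogonia in culture, by RNA sequencing of single cells, in a study of the role of CHD4, a chromatin remodelling ATPase, in the spermatogonial stem cell pool. Cells from adult C57BL/6 testes had been selected with magnetic beads for the surface protein THY1. They were grown in serum-free medium with GDNF and bFGF, over SNL76/7 mouse embryonic fibroblasts that mitomycin had stopped from dividing. The spermatogonia were then dislodged from this layer, and on plastic they received 75 pmol of siRNA with 2 µL Lipofectamine for 24 h. The siRNA was either a non-targeted control or directed against Chd4. Both groups therefore share transfection, growth factors and the loss of contact with the feeder layer, and no untransfected group was analysed here. Cells of 3 biological replicates, in equal numbers, were mixed per group and captured in droplets (10x Genomics, v2 chemistry). Each group is thus 1 library in which replicates cannot be told apart, and no difference below has a replicate check or a test across replicates.

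In the integrated stress response, kinases that sense unfolded proteins, amino acid shortage, double-stranded RNA or haem shortage phosphorylate the translation factor eIF2. General translation slows while ATF4 is made, and ATF4 drives genes of amino acid synthesis and transport, tRNA charging and redox balance, together with feedback factors and the partner CHOP, the product of Ddit3. In the other branches of the unfolded protein response, ATF6 and the spliced form of XBP1 raise ER chaperones and ER-associated degradation. Splicing of Xbp1 and phosphorylation of eIF2 cannot be seen in counts per gene.

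The members also differ in the letters just before their starts. RefSeq promoter windows on GRCm38.p6, from 250 bases before to 50 bases after each start, were held for 33 of the 37 members, with 34 windows. Eif4ebp1, Wars, Hyou1 and Manf had none. In 29 of the 34 windows the bases 10 to 40 after the start lay in an annotated (GENCODE) transcript of the gene. Those of Trib3, Sars, Dnajc3, Pdia4 and Xbp1 did not, so distances from their starts are less certain. Motifs were searched on both strands. The ER stress element (ERSE), CCAAT and CCACG with 9 bases between them, was found in 6 of 13 ER members (Hspa5, Hsp90b1, Calr, Dnajc3, Creld2 and Pdia6), in 0 of 20 ATF4-type members and in 0.119% of 32851 windows. The related ERSE-II, ATTGG and CCACG with 1 base between them, was found in 1 member, Herpud1, and in 0.0365% of windows. The C/EBP-ATF response element (CARE), TGATGNAA, was found in 8 of 20 ATF4-type members (Atf3, Nupr1, Trib3, Chac1, Asns, Slc7a11, Aars and Gars), in 1 of 13 ER members, again Herpud1, and in 3.97% of windows. The UPR element TGACGTGG was in 0 of 20 and 0 of 13 windows of the members, against 0.676% of all windows. The short core ACGTG, which lies within the UPR element and can overlap a CCACG of the other elements, was in 6 of 20 and 6 of 13, against 19.6% of all windows. A match is a run of letters, and binding was not measured.

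The sequences below are the last 120 bases before the start of members with a match there, chosen after the matches were seen, written 5′ to 3′ along the gene with the fixed letters of the element in capitals. Where an element lies on the opposite strand, its letters appear as the reverse complement. The first 4 carry the ERSE:
Hspa5, chr2:34771970-34772089, plus strand: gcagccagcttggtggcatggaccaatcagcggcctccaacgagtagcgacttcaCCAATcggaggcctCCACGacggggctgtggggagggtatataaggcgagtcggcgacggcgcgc
Hsp90b1, chr10:86705445-86705564, minus strand: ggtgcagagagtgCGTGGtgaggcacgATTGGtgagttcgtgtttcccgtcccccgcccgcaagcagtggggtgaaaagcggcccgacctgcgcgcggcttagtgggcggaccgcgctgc
Pdia6, chr12:17266469-17266588, plus strand: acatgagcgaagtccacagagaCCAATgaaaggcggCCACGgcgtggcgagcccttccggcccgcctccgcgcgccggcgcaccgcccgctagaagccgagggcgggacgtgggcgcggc
Dnajc3, chr14:118937812-118937931, plus strand: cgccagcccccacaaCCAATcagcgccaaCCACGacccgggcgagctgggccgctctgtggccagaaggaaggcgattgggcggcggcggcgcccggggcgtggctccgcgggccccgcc
Herpud1 carries a CARE and, further on, the ERSE-II:
Herpud1, chr8:94386309-94386428, plus strand: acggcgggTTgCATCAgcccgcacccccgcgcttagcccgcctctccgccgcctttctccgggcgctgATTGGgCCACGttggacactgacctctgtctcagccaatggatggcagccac
The next 4 ATF4-type members carry the CARE:
Atf3, chr1:191183334-191183453, minus strand: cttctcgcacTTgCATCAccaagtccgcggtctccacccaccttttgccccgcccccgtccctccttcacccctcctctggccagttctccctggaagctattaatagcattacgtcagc
Nupr1, chr7:126625471-126625590, minus strand: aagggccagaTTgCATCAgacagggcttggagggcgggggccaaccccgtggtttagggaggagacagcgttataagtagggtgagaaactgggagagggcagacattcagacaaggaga
Asns, chr6:7693210-7693329, minus strand: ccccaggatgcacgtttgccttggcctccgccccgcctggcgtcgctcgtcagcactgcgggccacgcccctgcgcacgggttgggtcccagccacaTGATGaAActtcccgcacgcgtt
Gars, chr6:55037881-55038000, plus strand: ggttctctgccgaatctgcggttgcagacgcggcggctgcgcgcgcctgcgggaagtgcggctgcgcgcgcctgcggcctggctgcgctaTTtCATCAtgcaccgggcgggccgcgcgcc

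The CARE began 110 bases before the start in Atf3 and Nupr1 and 112 bases before it in Herpud1 and Aars, on the opposite strand in these 4 genes. In Asns and Gars it lay 23 and 30 bases before the start, and Aars held another copy 9 bases after its start. In Trib3 it began 14 bases after the RefSeq start. The annotated Trib3 gene begins further on, at 152344032 on the minus strand, and by that annotation the match lies before the start. The ERSE began 65 bases before the start in Hspa5, 98 in Pdia6, 105 in Dnajc3 and 107 in Hsp90b1, whose window held another copy 212 bases before the start. Neither Atf4 nor Ddit3 had an ERSE, ERSE-II, CARE or UPR element in its window.

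Cells were split by their unique molecular identifiers (UMIs, 1 per captured RNA molecule) of Dazl and Ddx4, germ cell genes, against those of Col1a1 and Fn1, fibroblast genes. By this rule 728 of 816 cells of the control library and 760 of 858 of the Chd4 siRNA library were germ cells, 79 and 89 were feeder cells, and 9 and 9 had equal counts and were left out. Germ cells held 11605456 and 12251236 UMIs, with medians of 15282 and 15581.5 per cell. Feeder cells held 3174545 and 3607230, with medians of 38655 and 40805. Of the markers that the rule did not use, 12 of germ cells summed to 1529.9 and 1587 UMIs per 1000000 of the class total (CPM) in germ cells and to 82.2 and 66.0 CPM in feeder cells. For 11 fibroblast markers the sums were 742 and 819 CPM in germ cells and 17086 and 18694 CPM in feeder cells, of which Lum was at 0. The summed fibroblast markers thus stood in the germ class at 4.35% and 4.38% of their feeder level. Most of the germ class sum was Lgals1, at 542 and 619 CPM, beside 6285 and 6677 CPM in feeder cells. Single markers differed, with Vim at 18.1 and 18.6 CPM in germ cells and 1376 and 1582 CPM in feeder cells. Of markers of other testis cells, Sox9 stood at 221 and 207 CPM in the feeder class and 12.5 and 12.1 CPM in germ cells. The others found in the gene list, Wt1 and Amh among them, were at most 4.73 CPM in either class. Which cells the Sox9 UMIs came from was not tested. In each library 4 cells of the germ class carried over 5000 CPM of fibroblast markers, and 21 and 15 cells of the class had under 5 UMIs of the 4 genes of the rule. Chd4 itself was at 536 CPM (523 to 549) under control siRNA and 253 CPM (244 to 262) under Chd4 siRNA in germ cells, a log2 ratio of −1.08 (−1.15 to −1.02), and in feeder cells at 155 and 52.9 CPM, −1.55 (−1.8 to −1.3).

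The summed ATF4-type members were slightly higher under Chd4 siRNA in germ cells, and the summed ER members differed less. ATF4-type members together stood at 1524 and 1722 CPM under control and Chd4 siRNA, a log2 ratio of Chd4 siRNA over control of 0.18 (0.15 to 0.20). For ER members the sums were 1729 and 1798 CPM, a log2 ratio of 0.06 (0.03 to 0.08). Every bracket is a 95% interval for counting error only, from an exact Poisson or conditional binomial calculation. Because only RNA ends are counted, CPM are not divided by gene length. Higher and lower refer to these 2 libraries alone. The median log2 ratio was 0.18 over the 15 ATF4-type and 0.06 over the 15 ER members with at least 200 UMIs in both libraries together, beside 0.05 over all 8257 such genes. Past 1.2-fold (0.26 on the log2 scale), 5 of these 30 members were higher, or 16.7%, where 8.31% of all such genes were: Ddit3, Asns, Phgdh, Dnajb9 and Herpud1. Only Wars, 1 of 30, was lower past that fold, where 5.62% of all such genes were, and its interval reached past 0. The count of 5 was 3 of 30, or 10%, with TMM factors (Asns, Phgdh and Herpud1, where 5.22% of all genes were), with DESeq2 size factors (the same 3, where 6.07% were) and in strict classes (Ddit3, Asns and Phgdh, where 8.34% were, with 2 of 30 lower). Strict classes took cells with at least 5 UMIs of the 4 class genes, 90% of them of the own pair. The members under 200 UMIs were Atf3, Cebpb, Nupr1, Trib3, Chac1, Stc2 and Slc7a11.

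**Figure D1:**
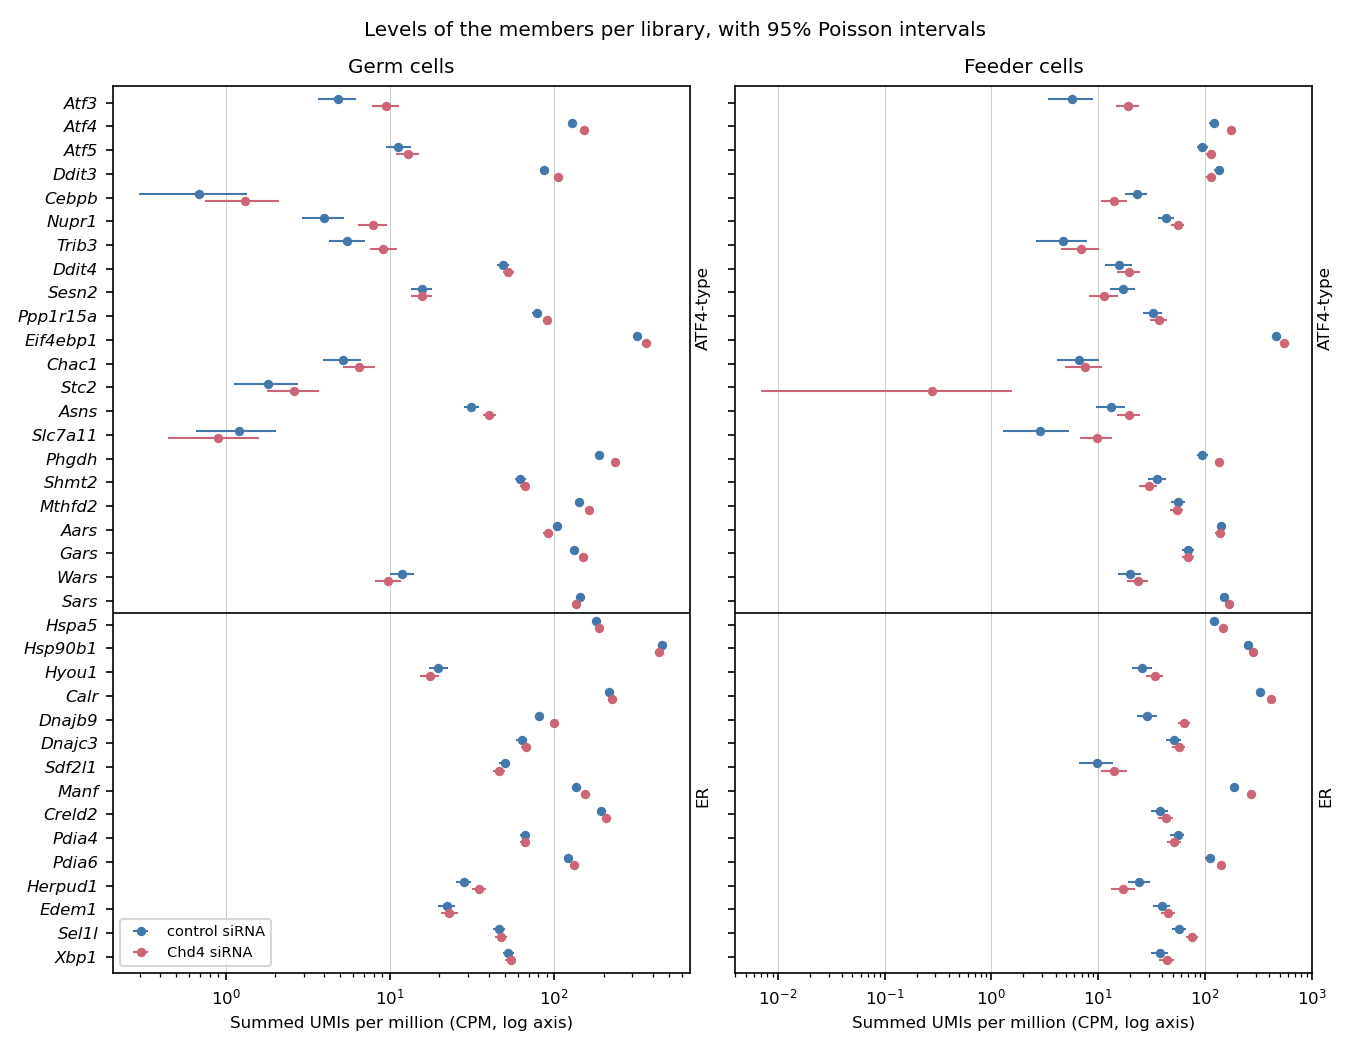
Level of each of the 37 members in CPM (log axis, scaled apart in each panel) in germ cells (left) and feeder cells (right), with 95% Poisson intervals, for the control siRNA library (blue) and the Chd4 siRNA library (red). Blue and red lie apart for Atf3, Nupr1 and Phgdh, among others, in germ cells and for Atf3 and Dnajb9, among others, in feeder cells. Most ER members of germ cells nearly coincide. Stc2 had 0 UMIs in control feeder cells and no point there.

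Among the transcription factors and regulators, Atf4 was the most abundant in germ cells by CPM. It stood at 128 CPM (121 to 135) under control siRNA and 152 CPM (146 to 159) under Chd4 siRNA, a log2 ratio of 0.25 (0.15 to 0.35) and so just short of 1.2-fold. Ddit3, which encodes the pro-apoptotic factor CHOP, stood at 87.4 CPM (82.1 to 92.9) under control siRNA and 106 CPM (100.3 to 112) under Chd4 siRNA, with a log2 ratio of 0.28 (0.16 to 0.40). With TMM factors its ratio was 0.23, under 1.2-fold. The intervals of the libraries did not overlap for either gene. Atf5, another translationally controlled factor of the same family, was at 11.3 and 12.8 CPM, a difference of 0.18 (−0.16 to 0.53) on the log2 scale that lay within counting error, and 1 cell of the Chd4 siRNA library held 17 of its 157 UMIs.

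The induced regulators were rarer. Atf3, an early target of ATF4, had 56 UMIs in 44 control germ cells and 116 UMIs in 71 germ cells under Chd4 siRNA, 4.83 and 9.47 CPM, a log2 ratio of 0.97 (0.50 to 1.46). Nupr1, a small chromatin-associated stress protein, had 46 UMIs in 30 cells and 97 in 53, 3.96 and 7.92 CPM, a log2 ratio of 1.0 (0.48 to 1.54). For Trib3, the pseudokinase that restrains ATF4 and CHOP, the counts were 64 UMIs in 49 cells and 112 in 79, 5.51 and 9.14 CPM, with 0.73 (0.27 to 1.2). All 3 were higher under Chd4 siRNA beyond counting error, which leaves out unevenness between cells. Some of this came with few cells: under Chd4 siRNA 1 cell held 14 of the Atf3 UMIs and 1 cell held 12 of the Nupr1 UMIs. Without the cells under 5 UMIs of the 4 class genes, the log2 ratios were 0.71 (0.22 to 1.21) for Atf3, 0.73 (0.18 to 1.29) for Nupr1 and 0.59 (0.12 to 1.06) for Trib3. With strict classes they were 0.61, 0.59 and 0.49, given here without intervals. Cebpb, a partner of ATF4 and CHOP, had 8 and 16 UMIs in germ cells, 0.92 (−0.39 to 2.35). It stood there at 3.00% and 9.24% of its feeder level. The summed fibroblast markers, mostly Lgals1 in germ cells, stood at 4.35% and 4.38%. Nupr1 stood at 9.12% and 14.3% of its feeder level. The part that feeder RNA plays in these levels was not tested. Atf3 stood at 85.1% and 50.2% of its feeder level, and Trib3 at 117% and 132%.

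Feedback and growth genes were dominated by Eif4ebp1, which encodes the translation repressor 4E-BP1. Its levels of 318 CPM (308 to 328) under control siRNA and 361 CPM (350.1 to 371) under Chd4 siRNA gave a log2 ratio of 0.18 (0.12 to 0.25), higher beyond counting error yet under 1.2-fold. Ppp1r15a, which encodes GADD34, the phosphatase subunit that restores eIF2, was at 78.8 and 90.7 CPM, with 0.20 (0.08 to 0.33). The mTORC1 inhibitors Ddit4 and Sesn2 did not differ beyond counting error. Ddit4 had 48.9 and 52.7 CPM, 0.11 (−0.05 to 0.28), and Sesn2 had 15.6 and 15.6 CPM, a ratio of 0.9996 on the linear scale. Chac1, the glutathione-degrading enzyme, had 60 and 80 UMIs, 0.34 (−0.16 to 0.84), and the secreted glycoprotein Stc2 had 21 and 32, 0.53 (−0.31 to 1.4). Those rare genes could not be told from no difference at this depth.

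Genes of amino acid and one-carbon supply summed to 424 and 507 CPM, 0.26 (0.20 to 0.31). Phgdh, the first enzyme of serine synthesis, stood at 187 CPM (179 to 195) under control siRNA and 235 CPM (227 to 244) under Chd4 siRNA, 0.33 (0.25 to 0.41). Asns, asparagine synthetase, stood at 31.3 CPM (28.1 to 34.7) under control siRNA and 40.4 CPM (36.9 to 44.1) under Chd4 siRNA, 0.37 (0.17 to 0.57). In both genes the Chd4 siRNA library lay above the control library with no overlap of intervals. Mthfd2, a mitochondrial folate enzyme, had 143 and 164 CPM, 0.20 (0.10 to 0.29), and its neighbour in the pathway Shmt2 had 62.4 and 66.4 CPM, 0.09 (−0.06 to 0.24). The cystine transporter gene Slc7a11 was near absent from germ cells, with 14 and 11 UMIs, −0.43 (−1.71 to 0.82).

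The 4 aminoacyl-tRNA synthetases among the members, which charge tRNAs with amino acids, differed in either direction. Their sum was 391 and 387 CPM, −0.01 (−0.07 to 0.05). Gars (glycine) was higher under Chd4 siRNA, 132 and 149.9 CPM, 0.19 (0.09 to 0.29). Aars (alanine) was lower, 104 and 91.3 CPM, −0.19 (−0.31 to −0.07). Wars (tryptophan) had 138 and 120 UMIs, −0.28 (−0.64 to 0.08), and Sars (serine) had 143 and 136 CPM, −0.07 (−0.17 to 0.03), neither beyond counting error.

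ER chaperones were abundant in germ cells and close to equal between the libraries. Hsp90b1, the ER member of the HSP90 family (GRP94), stood at 453 CPM (441 to 465) under control siRNA and 437 CPM (425 to 448) under Chd4 siRNA, −0.05 (−0.11 to 0.00). Hspa5, which encodes BiP, the chaperone that holds the stress sensors inactive, stood at 181 CPM (173 to 189) under control siRNA and 189 CPM (181 to 197) under Chd4 siRNA, 0.06 (−0.02 to 0.15). Calr, the calcium-binding lectin chaperone calreticulin, had 215 and 224 CPM, 0.06 (−0.02 to 0.14). For these 3 abundant genes a difference as large as 1.2-fold lay outside the interval. Creld2, a resident ER protein induced by ER stress, had 194 and 207 CPM, 0.09 (0.01 to 0.18). Manf, a secreted ER stress protein, had 135 and 153 CPM, 0.18 (0.09 to 0.28), higher beyond counting error. Dnajb9 (ERdj4), the BiP cochaperone that represses the sensor IRE1, was the ER chaperone gene past 1.2-fold, at 81.1 CPM (75.98 to 86.4) under control siRNA and 99.5 CPM (93.99 to 105) under Chd4 siRNA, 0.30 (0.17 to 0.42). Its log2 ratio was 0.24 with strict classes and 0.25 with TMM factors, both under that fold. Dnajc3 (0.08 (−0.07 to 0.22)), which inhibits the eIF2 kinase PERK, did not differ beyond counting error. The same held for Sdf2l1 (−0.11 (−0.28 to 0.06)), a BiP cofactor, and Hyou1 (−0.18 (−0.45 to 0.10)), its nucleotide exchange factor.

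The disulphide isomerase genes Pdia4 and Pdia6 had 66.4 and 66.7 CPM and 121 and 132 CPM, with log2 ratios of 0.01 (−0.14 to 0.15) and 0.12 (0.01 to 0.22). Herpud1, an ER membrane component of the degradation complex, stood at 28.1 CPM (25.1 to 31.3) under control siRNA and 34.9 CPM (31.6 to 38.3) under Chd4 siRNA, 0.31 (0.10 to 0.52). That value depended on which cells and depth were used: 0.26 (0.04 to 0.48) with at least 5 class UMIs, 0.24 with strict classes and 0.10 with each cell thinned to 9000 UMIs. Edem1, which routes glycoproteins to degradation, Sel1l, the adaptor of that complex, and Xbp1, the transcription factor, had log2 ratios of 0.06 (−0.19 to 0.31), 0.03 (−0.14 to 0.20) and 0.04 (−0.12 to 0.20), with Xbp1 at 52.6 and 54.3 CPM.

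**Figure D2:**
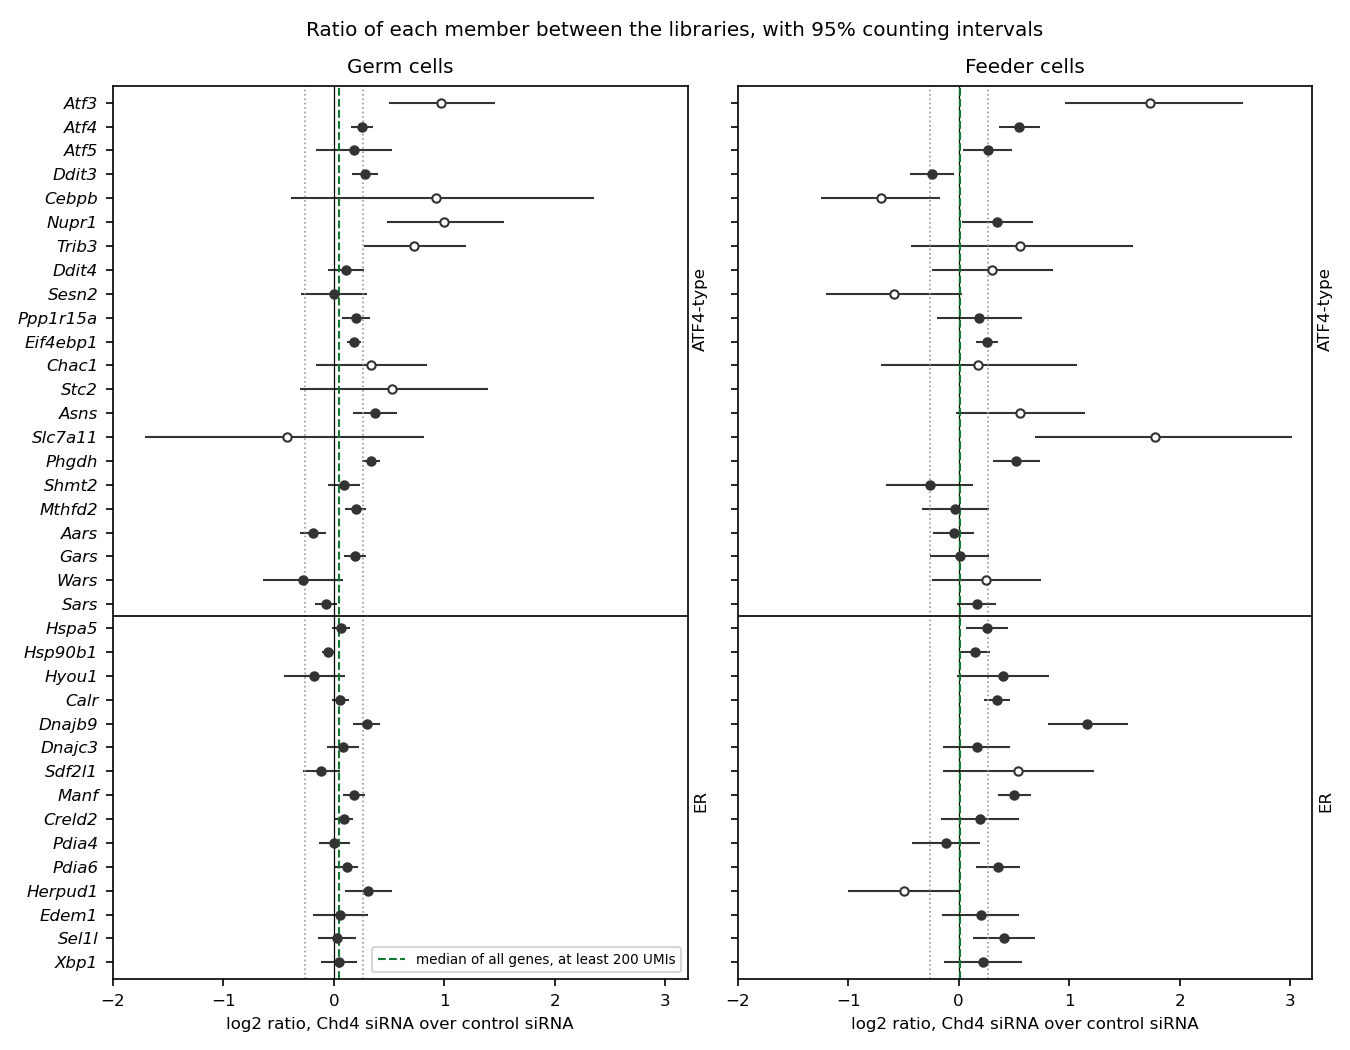
Log2 ratio of Chd4 siRNA over control siRNA for each member in germ cells (left) and feeder cells (right), with 95% counting intervals. Filled points have at least 200 UMIs over both libraries, open points fewer. Dotted lines mark 1.2-fold and the dashed line the median of all genes with at least 200 UMIs (0.05 and 0.01). ATF4-type members of germ cells lie mostly to the right of that median and ER members close to it. In feeder cells Atf3, Slc7a11 and Dnajb9 stand farthest to the right, and Cebpb, Sesn2 and Herpud1 farthest to the left.

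Genes of the same pathways outside the 37 were taken from lists of known function. Sensors and eIF2 machinery (19 genes) summed to 1122 and 1132 CPM in germ cells, 0.01 (−0.02 to 0.05). Past 1.2-fold, 1 of 16 of them were higher and 0 lower, where 8.31% and 5.62% of all genes were, and 5 of the 16 lay above the median of all genes. Ppp1r15b, the constitutive eIF2 phosphatase subunit, had 35.8 and 44.7 CPM, 0.32 (0.14 to 0.51). The other ATF4 target genes (20 of 24 named in the gene list) summed to 1091 and 1152 CPM, 0.08 (0.04 to 0.11), with 1 of 10 higher and 0 lower past the fold, also near those shares, and 4 of 10 above the median. Map1lc3b, which encodes the autophagy protein LC3B, had 505 and 563 CPM, 0.16 (0.11 to 0.21). Slc7a5, the large neutral amino acid transporter, had 125 and 111 CPM, −0.18 (−0.28 to −0.07), and Gpt2, an alanine aminotransferase, 10.4 and 13.7 CPM, 0.40 (0.05 to 0.74). The other cytosolic synthetases (15 of 16 named) summed to 1109 and 1231 CPM, 0.15 (0.12 to 0.19), and 13 of 15 lay above the median of all genes, with 0 past the fold. Qars (glutamine) had 84.96 and 102 CPM, 0.26 (0.14 to 0.38) and Mars (methionine) 72.5 and 86.8 CPM, 0.26 (0.13 to 0.39).

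Other ER folding genes (17 of 18 named) summed to 1449.8 and 1497 CPM, 0.05 (0.02 to 0.08), with 2 of 16 higher and 1 lower past the fold, beside 8.31% and 5.62% of all genes, and 9 of 16 above the median. Tmx1, a membrane-bound thioredoxin, had 17.3 and 23.02 CPM, 0.41 (0.14 to 0.68), and Sil1, a BiP nucleotide exchange factor, 15.3 and 11.5 CPM, −0.41 (−0.74 to −0.09). Genes of ER degradation and translocation (20 of 21 named) summed to 2256 and 2119 CPM, −0.09 (−0.11 to −0.07), yet the median of the 17 with at least 200 UMIs was 0.0009, with 7 of 17 above the median of all genes. Past the fold 1 of 17 was higher and 2 lower, beside the same 8.31% and 5.62%. Sec61g, a subunit of the translocation channel, had 868 and 701 CPM, −0.31 (−0.35 to −0.27), a drop larger than that of the whole sum. Sec23b, a coat protein of vesicles that leave the ER, had 27.6 and 21.4 CPM, −0.37 (−0.61 to −0.13), and Derl1, a channel component of ER-associated degradation, had 50.5 and 58.8 CPM, 0.22 (0.06 to 0.38).

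The feeder cells left in the cultures showed a different mix. ER members together were at 1367 and 1697 CPM under control and Chd4 siRNA, 0.31 (0.25 to 0.37), and ATF4-type members at 1543 and 1774 CPM, 0.20 (0.15 to 0.26). Medians over members with at least 200 UMIs were 0.26 (13 ER) and 0.17 (12 ATF4-type), beside 0.01 over 4249 genes. Past 1.2-fold, 9 of 25 members were higher, 36%, against 14.9% of all such genes: Atf4, Nupr1, Phgdh, Hyou1, Calr, Dnajb9, Manf, Pdia6 and Sel1l. Lower past the fold was 1 of 25, Shmt2, or 4%, against 15.5% of all such genes, and it lay at the threshold, as did Atf5 just short of it on the higher side. The intervals of Hyou1, 0.40 (−0.01 to 0.82), and Shmt2, −0.26 (−0.66 to 0.13), reached past 0. With TMM and DESeq2 size factors 12 and 13 of 25 were higher, where 17.8% and 20.4% of all genes were. These sums rest on 79 and 89 cells.

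Dnajb9 differed most among the 25, with 91 and 232 UMIs, 28.7 CPM (23.1 to 35.2) under control siRNA and 64.3 CPM (56.3 to 73.1) under Chd4 siRNA, 1.17 (0.81 to 1.53). It was found in 26.7% and 41.7% of feeder cells thinned to 9000 UMIs (64.6% and 76.4% unthinned). At most 7 of its 91 and 45 of its 232 UMIs came from 1 cell. Atf4 stood at 121 CPM (109 to 134) under control siRNA and 177 CPM (164 to 191) under Chd4 siRNA, 0.55 (0.36 to 0.73). At most 41 of its 385 control UMIs and 98 of its 639 under Chd4 siRNA came from 1 cell. Manf had 188 and 267 CPM, 0.50 (0.36 to 0.65), and 1 cell held 67 of its 598 control UMIs and 1 cell 149 of its 964 under Chd4 siRNA. Calr had 325 and 413 CPM, 0.34 (0.23 to 0.46), with at most 60 of 1031 and 105 of 1488 UMIs in 1 cell. Atf3 had 18 UMIs in 9 feeder cells and 68 in 14, 1.73 (0.97 to 2.57), with at most 8 and 21 in 1 cell. Slc7a11 had 9 UMIs in 7 cells and 35 in 12, 1.78 (0.69 to 3.02), with at most 2 and 12 in 1 cell. Poisson intervals leave out this unevenness between cells.

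A few members were lower in feeder cells under Chd4 siRNA. Ddit3 stood at 134 CPM (122 to 148) under control siRNA and 114 CPM (103 to 125) under Chd4 siRNA, −0.24 (−0.44 to −0.04), opposite in sign to its germ cell ratio. Cebpb had 73 and 51 UMIs, −0.70 (−1.25 to −0.17), and Herpud1 77 and 62, −0.50 (−1.0 to 0.00). For Ddit3, 1 cell held 46 of 426 UMIs under control siRNA and 1 cell 41 of 410 under Chd4 siRNA. For Herpud1 these were 26 of 77 and 9 of 62. Among thinned cells Ddit3 was found in 52.00% and 40.5% of feeder cells (84.8% and 82.0% unthinned). No cell type here is known to lack these genes, so no background share was set.

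Summed ATF4-type members were nearly level between germ and feeder cells, with log2 ratios of germ over feeder of −0.02 (−0.06 to 0.03) under control siRNA and −0.04 (−0.08 to −0.00) under Chd4 siRNA. Summed ER members were higher in germ cells under control siRNA, 0.34 (0.29 to 0.39), and less so under Chd4 siRNA, 0.08 (0.04 to 0.12). Without Hsp90b1, the member with most UMIs, the ER sums gave 0.20 and −0.06. Medians over members with at least 200 UMIs in the library were 0.08 and 0.18 for ATF4-type and 0.26 and 0.30 for ER members. Each lay under the median of all such genes, 0.43 and 0.48. Past 2-fold, 7 of 30 members with at least 200 UMIs were higher in germ cells of the control library, where 32.9% of all such genes were, and 1 of 30 in feeder cells, where 15.9% were. In the Chd4 siRNA library 9 of 31 were higher in germ cells (35.4% of all such genes) and 3 of 31 in feeder cells (16.3%).

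Of the 7 groups of members by role, amino acid supply had the highest germ over feeder log2 ratios, 1.07 (0.95 to 1.19) and 1.02 (0.92 to 1.13). Mthfd2 stood at 1.35 (1.13 to 1.59) and 1.58 (1.37 to 1.8), whereas Slc7a11 of the same group lay on the feeder side, −1.23 (−2.54 to 0.16) and −3.43 (−4.56 to −2.42). ER chaperones and cofactors had 0.42 (0.36 to 0.47) and 0.12 (0.08 to 0.17). Transcription factors and regulators leaned to feeder cells, −0.82 (−0.92 to −0.73) and −0.74 (−0.82 to −0.66), with Atf5 at −3.07 (−3.37 to −2.76) and −3.15 (−3.42 to −2.88) and Nupr1 at −3.46 (−3.97 to −2.96) and −2.81 (−3.17 to −2.45). Cebpb lay at −5.06 (−6.32 to −4.01) and −3.44 (−4.35 to −2.6), and Ddit3 at −0.62 (−0.78 to −0.45) and −0.10 (−0.26 to 0.06). Atf4 itself was close to level, at 0.08 (−0.09 to 0.24) and −0.22 (−0.35 to −0.09). The other members past 2-fold in germ cells of both libraries were Ddit4, Ppp1r15a, Asns, Sdf2l1 and Creld2. Creld2 had the highest control ratio with Sdf2l1, 2.36 (2.09 to 2.63) and 2.26 (2.02 to 2.5) in the Chd4 siRNA library, and Sdf2l1 stood at 2.36 (1.83 to 2.93) and 1.71 (1.29 to 2.15). Dnajb9 passed 2-fold in the control library alone, 1.5 (1.19 to 1.83) against 0.63 (0.43 to 0.84), and Shmt2, Gars and Herpud1 in the Chd4 siRNA library alone. The change of these ratios between libraries was not tested. Stc2, with 21 and 32 UMIs in germ cells, had 0 UMIs in 79 feeder cells of the control library and 1 UMI in 89 of the other.

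**Figure D3:**
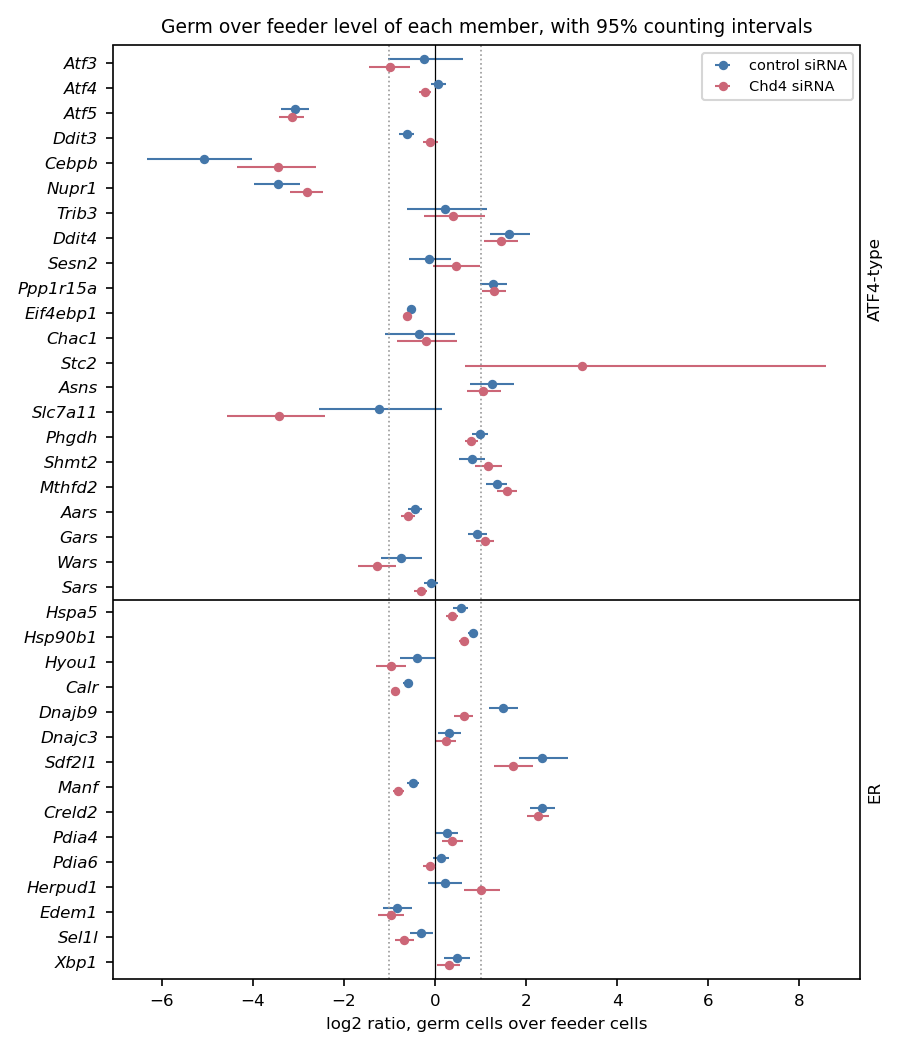
Log2 ratio of germ over feeder cells for each member within the control siRNA library (blue) and the Chd4 siRNA library (red), with 95% counting intervals and dotted lines at 2-fold. Atf5, Cebpb and Nupr1 lie far to the feeder side, and Creld2 and Sdf2l1 far to the germ side. Stc2 has a wide interval, from 1 feeder UMI under Chd4 siRNA, and no point under control siRNA.

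Within each library the members varied together from cell to cell. Germ cells were thinned to 9000 UMIs each (666 and 697 cells kept), and Pearson's r was taken on log2(UMI + 1), as a description with no test. All pairs share library, cells and total. The summed ATF4-type members had a median of 12 UMIs per thinned cell under control siRNA (range 0 to 50) and 14 under Chd4 siRNA (3 to 75), and ER members 14 (2 to 74) and 14 (2 to 75). The sums correlated with each other at r = 0.31 and r = 0.40. With the full UMIs of the cell r was −0.00 and −0.03 for the ATF4-type sum and −0.10 and −0.16 for the ER sum, which was thus somewhat lower in deeper cells. With fibroblast markers it was −0.07 and −0.01, and −0.11 and −0.08. With the UMIs of Chd4 it was 0.03 and −0.08 for the ATF4-type sum and 0.06 and −0.03 for the ER sum.

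**Figure D4:**
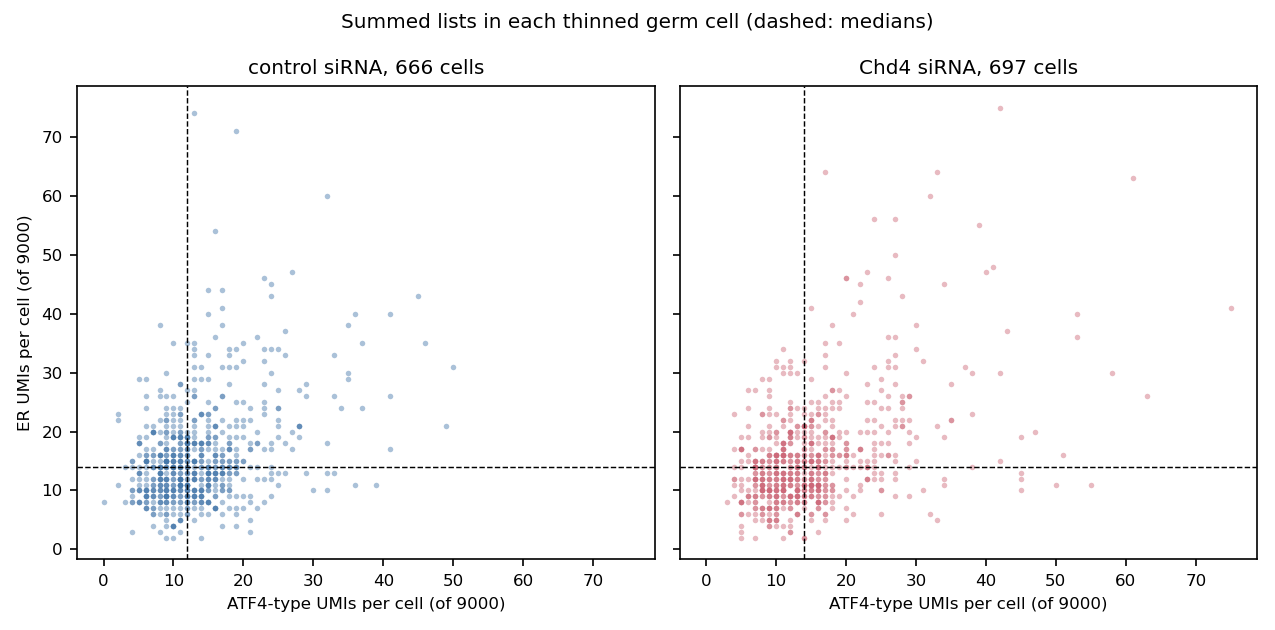
Summed UMIs of the ATF4-type members (horizontal) and of the ER members (vertical) in each germ cell thinned to 9000 UMIs, for 666 cells of the control siRNA library (left) and 697 of the Chd4 siRNA library (right). Dashed lines mark the medians, 12 and 14 across and 14 and 14 up. Most cells lie near the medians, with a tail of higher cells in both libraries. The highest cell has 50 ATF4-type UMIs in the control and 75 in the Chd4 siRNA library, and 74 and 75 ER UMIs.

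Pairs were computed for 12 ATF4-type and 14 ER members with a mean of at least 0.2 UMI per thinned cell. Within the ATF4-type list the median r over 66 pairs was 0.086 and 0.109, within the ER list over 91 pairs 0.095 and 0.112, and between lists over 168 pairs 0.050 and 0.070. All pairs among 5321 genes of such a mean had a median of 0.006 and 0.005. These genes share the minimum of 0.2 UMI but were not matched to the members by mean, on which r of sparse counts can depend. Values over 0.1 made up 36.4% and 54.5% of pairs within the ATF4-type list, 47.3% and 57.1% within the ER list, 23.2% and 35.1% between them, and 1.74% and 1.65% of all pairs. The strongest ATF4-type pair was Atf4 with Ddit3, 0.38 and 0.34. In the ER list Hspa5 led, with 0.37 and 0.32 for Calr, 0.36 and 0.37 for Hsp90b1 and 0.26 and 0.30 for Pdia6. These 4 genes are among the 6 members whose windows held an ERSE. The other 2, Creld2 and Dnajc3, had 0.12 and 0.17 and 0.15 and 0.16 with Hspa5, and Xbp1, with none of the elements in its window, had 0.24 and 0.25. Herpud1, without an ERSE, had 0.249 and 0.324 with Hspa5. In the Chd4 siRNA library that was above Calr (0.318) and Pdia6 (0.301). The part of the element in these values was not tested.

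Herpud1 was placed with the ER members by its function but varied with the ATF4-type genes. Its r was 0.31 and 0.40 with Ddit3 and 0.31 and 0.36 with Atf4, beside 0.25 and 0.32 with Hspa5. Against the summed ATF4-type list it reached 0.32 and 0.42, and against the rest of the ER list 0.24 and 0.31. Both its promoter elements, the CARE and the ERSE-II, are printed above. No other ER member of the 14 had a higher r with the ATF4-type sum than with the rest of its own list in both libraries. Of the 12 ATF4-type members, Ppp1r15a had a slightly higher r with the ER list (0.14 and 0.17) than with the rest of its own (0.12 and 0.15) in both libraries. Edem1 and Sel1l varied with little else, at 0.01 and 0.11, and 0.02 and 0.13, against the rest of the ER list, and Shmt2 at 0.11 and 0.08 against the rest of the ATF4-type list.

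**Figure D5:**
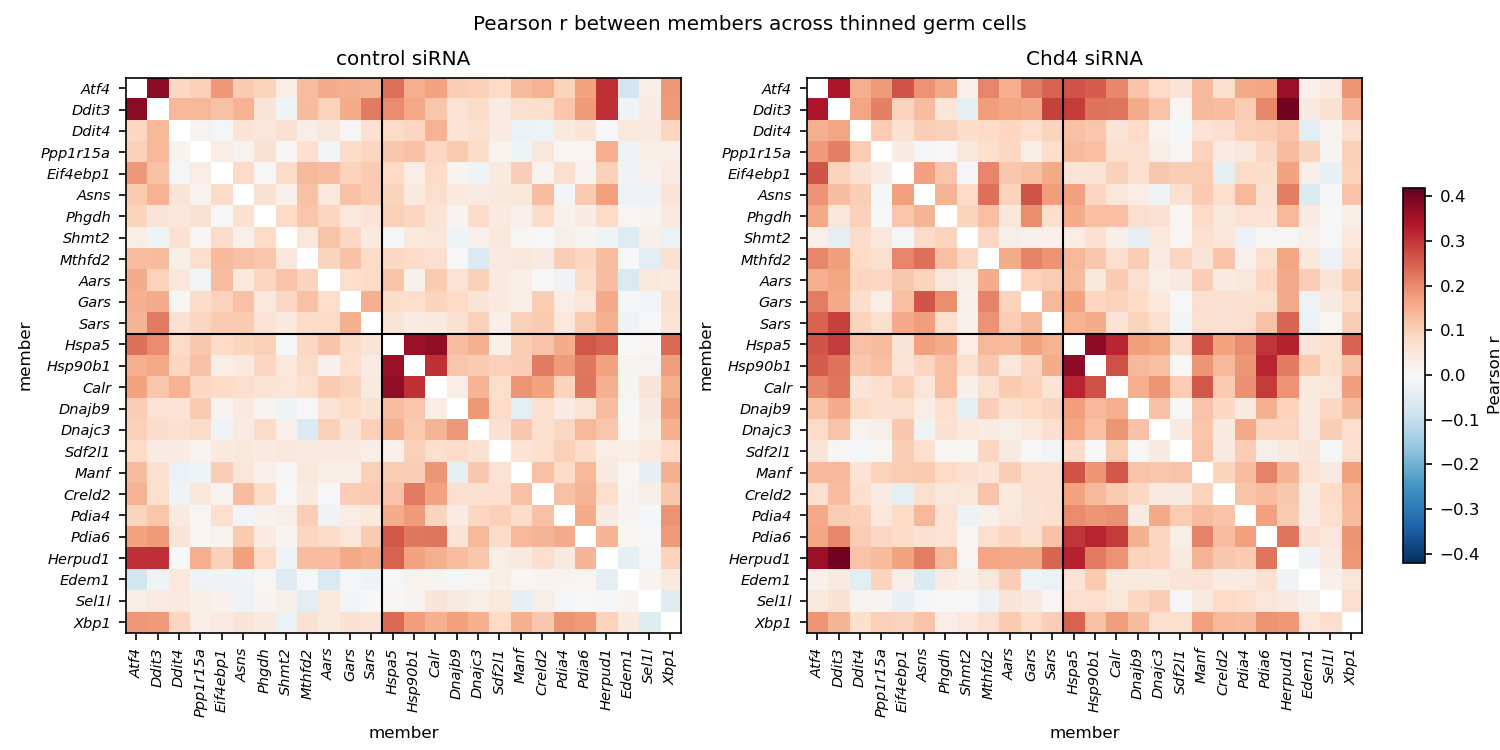
Pearson's r between members across thinned germ cells (colour scale, red positive and blue negative) for the control siRNA library (left) and the Chd4 siRNA library (right). Black lines part the 12 ATF4-type from the 14 ER members. Red blocks join Atf4 with Ddit3 and Hspa5 with Hsp90b1 and Calr, and Herpud1 is red with both Atf4 and Ddit3.

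Counts of some members were more uneven between cells than those of most genes. The variance over the mean of thinned UMIs (Fano factor, about 1 for pure counting noise) was 2.57 and 3.37 for Ddit3 in the control and Chd4 siRNA libraries, 2.32 and 2.47 for Hsp90b1, 2.34 and 2.39 for Hspa5 and 1.72 and 2.40 for Atf4. The median of 5321 genes was 1.10 and 1.10, and 95% of them lay below 1.68 and 1.74. Genes were not matched by mean count, with which the factor can rise. Hsp90b1 had a mean of 4.24 and 3.84 UMIs per thinned cell, and Edem1 0.21 and 0.21. Herpud1, at a mean of 0.28 and 0.30, had factors of 1.65 and 1.57. Other members were close to counting noise, such as Shmt2 (1.19 and 1.004) and Edem1 (1.05 and 0.984). The 10% of cells with most ATF4-type UMIs held 21.3% and 22.9% of them. Ddit3 was found in 41.9% and 42.9% of thinned germ cells (54.4% and 55.0% unthinned), close to equal shares beside its higher level under Chd4 siRNA. For Atf4 the shares were 57.2% and 61.3% (71.6% and 75.7%), for Phgdh 74.6% and 80.3% (82.7% and 88.3%), and for Trib3 4.05% and 7.75% (6.73% and 10.4%).

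Of the genes outside the 37, those most alike the summed ATF4-type list over the 666 control cells were Eif1 (r = 0.34 and 0.35 in the Chd4 siRNA library), Eif2s2 (0.33 and 0.42), Ifrd1 (0.29 and 0.28), Iars (0.27 and 0.22) and Msmo1 (0.24 and 0.23). Spcs2, Hspa9, Cars, Gaa and Ctsl completed the 10, between 0.24 and 0.23 in the control library. Eif1 and Eif2s2 encode translation initiation factors, and Eif2s2 a subunit of eIF2 itself. Iars and Cars encode the isoleucine and cysteine synthetases. The genes most alike the summed ER list were Spcs2 (0.30 and 0.35), a signal peptidase subunit, Msmo1 (0.30 and 0.32), a sterol synthesis enzyme, Canx (0.29 and 0.29) and Pdia3 (0.28 and 0.25), which encode folding factors of the calreticulin cycle, and Insig1 (0.26 and 0.32), which holds back sterol synthesis. The further 5 were Ctsl, Ctsd, Mphosph8, Dhcr7 and Cars. Spcs2, Msmo1, Ctsl and Cars were in both groups of 10. Such correlations are weak, and the genes were ranked among 5295.

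The members were also followed by cell cycle phase, called from phase genes relative to the thinned germ cells scored together. Of the control cells 39.9% were called G1, 36.2% S and 23.9% G2M, and under Chd4 siRNA 43.8%, 35.0% and 21.2%. ATF4-type sums were higher under Chd4 siRNA in each phase, at 1520.0 and 1758 CPM in G1, 1561 and 1752 in S, and 1494 and 1658 in G2M. ER sums were 1747 and 1829.5 CPM in G1, 1778 and 1749.5 in S, and 1802 and 1720.0 in G2M. Ddit3 was at 105 CPM (92.3 to 119) in G1 cells of the control library and 138 CPM (125 to 153) under Chd4 siRNA. In G2M it was at 77.6 CPM (63.8 to 93.4) and 78.8 CPM (64.5 to 95.4). Phgdh had another order over the phases, with 162, 196 and 222 CPM in G1, S and G2M of the control library and 213, 254 and 226 CPM under Chd4 siRNA. Differences between phases were not tested.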

How the data were processed

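Single-cell libraries of 2 groups were used, 1 per group, each made from cells of 3 pooled biological replicates. The deposited matrices hold UMI counts per gene and cell, whole numbers with no normalization, per the file headers and the values. The submitters' processing notes name Cell Ranger 2.1.0, Seurat and mm10, without roles. The sources used here do not say how cells were called. Named rows were 26893 of 27998. The other 1105, with 12.1% and 12.6% of UMIs, stayed out of totals. The last cell of each matrix is incomplete as held and was dropped, leaving 816 and 860 cells. Those with at least 1000 UMIs were kept (816 and 858). The libraries shared 1 cell barcode among the 817 and 799 held. Scrublet in scanpy 1.11.5, at an expected rate of 1%, called 14 cells (1.72%) and 6 cells (0.699%) doublets, which were kept.

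UMIs were summed per class and library (numpy 2.4.6) and divided by the class total to give CPM. Exact intervals of 95% (scipy 1.17.1) cover counting error only, and with 1 library per group no p-value was computed. The depth sets the precision: Hyou1, with 443 UMIs over both germ classes, has an interval several times as wide as Hsp90b1, with 10603. For shares, spread and correlations every cell was downsampled (thinned) to 9000 UMIs, without those of lower depth. Phases came from scanpy's cell cycle scores. Promoter sequences came from RefSeq (GRCm38.p6).

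The text names all 37 members, Chd4, up to 4 genes of each other pathway list (at least 200 UMIs, by the interval bound that lay closest to 0, farthest out first), and the 10 genes most alike each summed list in the control library. The members and lists were chosen with earlier results of these data known. Scripts were checked on simulated counts. As alternatives, totals were scaled by TMM factors (edgeR 4.0.16) or DESeq2 1.42.0 size factors in R 4.3.3. Further alternatives were totals without ribosomal protein genes, strict classes, mean per-cell CPM, at least 5000 UMIs per cell, doublets removed, at most 20% of UMIs in unnamed rows, G1 cells, thinned cells, other minimum counts and folds, Herpud1 moved to the ATF4-type list, and sums without the most abundant member. Another 2, at least 5 UMIs of the class genes and germ cells over 5000 CPM of fibroblast markers left out, were chosen after seeing the data.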

Additional observations from a re-analysis of the deposited data

Results flagged for a closer look

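Ddit3 had ratios of opposite sign in the cell classes. Its log2 ratio of Chd4 siRNA over control was 0.28 (0.16 to 0.40) in germ cells and −0.24 (−0.44 to −0.04) in feeder cells. Each was beyond counting error when scaled by class totals, in feeder cells narrowly. These intervals leave out the choice of scaling and unevenness between cells. With 1 library per group the difference between the classes was not tested. In thinned cells the ratios were 0.29 and −0.70. Of the Ddit3 UMIs of feeder cells, 1 cell held 46 of 426 in the control library and 1 cell 41 of 410 in the Chd4 siRNA library.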

How the results depend on the processing

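No paired analysis was possible because each group is 1 library and the groups share fewer than 2 replicate numbers. Of 444 values of single members in germ cells under the alternatives, 427 stayed within the main value's interval, 13 moved and 4 reversed. Of 396 in feeder cells 380 stayed, 12 moved and 4 reversed. A change of sign counted as reversed only where the main value was past 1.2-fold. Smaller values that changed sign within the interval counted as stayed, such as Pdia4 in germ cells (0.0055, and −0.013 with at least 5 UMIs of the class genes). Of 270 values for lists, 214 stayed, 56 moved and 0 reversed. The causes of these shifts were not tested. Shares of all genes past the fold were computed only for the main setting, TMM factors, DESeq2 size factors and strict classes. Under the other settings, counts of members past a fold have no such share beside them, in either cell class. Those counts show how the calls depend on the setting and are no result about the members. In germ cells the summed ATF4-type log2 ratio (0.18) was 0.13 with TMM factors, 0.14 with DESeq2 size factors and 0.21 in G1 cells. The summed ER ratio (0.06) was 0.00876 with TMM factors, 0.021 with DESeq2 size factors, 0.028 without ribosomal protein genes in the total, 0.028 with strict classes, 0.13 as a mean of per-cell CPM, 0.0057 in thinned cells and 0.093 without Hsp90b1. ATF4-type members higher past 1.2-fold in germ cells (3) were 2 with TMM factors, DESeq2 size factors, the total without ribosomal protein genes, at most 20% of UMIs in unnamed rows or no germ cells over 5000 CPM of fibroblast markers, 5 in thinned cells, 8 with at least 50 UMIs and 0 past 1.5-fold, and those lower (1) were 0 in thinned cells, in G1 cells, with at least 500 UMIs and past 1.5-fold. ER members higher past 1.2-fold in germ cells (2) were 1 with TMM factors, DESeq2 size factors, at least 5 UMIs of the class genes, no germ cells over 5000 CPM of fibroblast markers, or thinned cells, and 0 with strict classes, in G1 cells or past 1.5-fold. Those lower (0) were 1 with strict classes and 1 in thinned cells. Reversed in germ cells were Cebpb (−0.20 in G1 cells), Chac1 (−0.017 in G1 cells) and Slc7a11 (0.066 with strict classes and 0.80 in G1 cells), each with under 200 UMIs.

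In feeder cells the summed and median ATF4-type ratios (0.20 and 0.17) were 0.27 and 0.38 in thinned cells, and the summed ER ratio (0.31) was 0.43 as a mean of per-cell CPM. ATF4-type members higher past 1.2-fold (3) were 5 with TMM factors, DESeq2 size factors or at most 20% of UMIs in unnamed rows, 6 with at least 50 UMIs and 0 past 1.5-fold. Those lower (1) were 0 with TMM factors, DESeq2 size factors, mean per-cell CPM, thinned cells, at least 500 UMIs or 1.5-fold, 2 with strict classes, with at most 20% of UMIs in unnamed rows or with at least 5 UMIs of the class genes, and 3 with at least 50 UMIs. ER members higher (6) were 10 with mean per-cell CPM, 3 in thinned cells, 3 with at least 500 UMIs and 1 past 1.5-fold, and those lower (0) were 1 with at least 50 UMIs. Reversed in feeder cells were Cebpb (0.033, mean per-cell CPM), Sesn2 (0.29, mean per-cell CPM, and 0.54, thinned cells) and Asns (−0.064, thinned cells). Without the most abundant member, the germ over feeder log2 ratio of ATF4-type members was 0.16 (control siRNA) and 0.15 (Chd4 siRNA), and that of ER members 0.20 and −0.056. The r of both sums in the Chd4 siRNA library (0.40) was 0.52 in G1 cells and 0.47 without thinning. Depth limits the 7 members under 200 UMIs in germ cells, whose ratios have wide intervals.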
